A study of Mus musculus with 9 samples.

Results

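Fam222a, Mfap3, Ccdc117, Zmym1, Rbm12b2 and Gm9747, 6 genes measured by RNA sequencing, are described here in the mediobasal hypothalamus (MBH) of weanling mice, across all of their transcripts. They were given as a named list, chosen by their lower values in earlier results from these same libraries, so their levels, transcripts and fold changes are a description and carry no test. All 6 of the 6 members passed the filter on low counts and are among the 15340 genes tested, out of which 15 were lower in Emul with an adjusted p under 0.05 by limma-voom (0.0978% of genes tested). The 6 members are all among those 15, as their choice would have it. Of the genes tested, 0.117% passed that threshold in either direction.

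RNA was sequenced from wild-type C57Bl/6 males at P21, the age of weaning. CTRL mice (n = 4) were born to dams that drank plain water, and Emul mice (n = 5) to dams whose water held 1% carboxymethylcellulose (CMC) and 1% polysorbate 80 (P80), food emulsifiers given before pregnancy and through gestation and lactation. Libraries came from separate litters according to the methods, were strand-specific and enriched for mRNA, and no gene was altered in any mouse. The comparison asks which transcripts of the MBH, home of the arcuate nucleus whose neurons govern feeding, differ after maternal emulsifier intake. Because whole tissue was sequenced, fewer cells of a type and less RNA per cell cannot be told apart.

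The members do not form a pathway. Fam222a encodes aggregatin, a protein that binds amyloid beta, and Mfap3 encodes a microfibril-associated membrane glycoprotein. Zmym1 belongs to the MYM-type zinc finger genes, some relatives of which sit in histone demethylase complexes, and Rbm12b2 encodes a protein with RNA recognition motifs. Ccdc117 is named for its coiled coil, and Gm9747 is a predicted gene known only as a model.

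Their places in the mouse genome (mm10, GENCODE M21) bear on what was counted. Fam222a lies at chr5:114568016-114613220 on the plus strand, Ccdc117 at chr11:5528887-5542187 on the minus strand and Zmym1 at chr4:127047094-127061152 on the minus strand. Mfap3, at chr11:57518664-57533815 on the plus strand, starts 46 bases from Fam114a2, which is read the other way, and in RefSeq (GRCm38.p6) the outer ends of both genes overlap by 5 bases. Rbm12b2, at chr4:12089439-12096243 on the plus strand, overlaps the start of Tmem67 by 582 bases on the other strand and has a near copy, Rbm12b1, at chr4:12140264-12146731. Gm9747 is a single exon at chr1:82233112-82235933 on the plus strand, and all 2822 of its bases lie inside Irs1, which is read from the minus strand.

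How far reads could tell the members from other genes was counted as 31-base words, the default length in a kallisto index, over both strands. Fam222a and Ccdc117 shared 0 of their 3105 and 3342 words with any other quantified gene. For Mfap3 it was 8 of 5788 words (0.138%), and for Zmym1 it was 2 of 4248 (0.0471%). Rbm12b2 differed from these, with 62.4% of its 3467 words also in Rbm12b1 on the same strand and 7.47% in Tmem67 on the opposite strand. Every one of the 2792 words of Gm9747 also occurs in Irs1, on the opposite strand.

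The Rbm12b2 and Rbm12b1 coding sequences are shown because they set how finely these 2 genes can be separated. Their coding sequences of 2502 and 2508 bases, stop codon left out, are identical at 97.8% of 2508 aligned positions. The first 60 coding bases are the same in both and read as follows for Rbm12b2 (chr4:12093143-12093202, plus strand).
Rbm12b2 first coding bases: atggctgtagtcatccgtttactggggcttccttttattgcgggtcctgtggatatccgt
The 60-base stretch with the most differences holds 18 of the 54 differing positions, at chr4:12095350-12095409 in Rbm12b2 and at chr4:12146243-12146302 in Rbm12b1, both on the plus strand. Capitals mark the bases that differ.
Rbm12b2: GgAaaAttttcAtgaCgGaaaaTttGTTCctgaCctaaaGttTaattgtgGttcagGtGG
Rbm12b1: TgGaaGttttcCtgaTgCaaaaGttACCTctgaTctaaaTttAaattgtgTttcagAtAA

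The splice junctions of Zmym1 are shown because, as kallisto divided the counts, its processed transcripts carry most of the difference in mean CPM described further on. That division is uncertain, since Zmym1-207 has 27 words of its own within the gene and the coding Zmym1-201 has 0. Reads over the junctions were not counted. Of the 7 annotated transcripts, Zmym1-203 is protein coding with 8 exons, and Zmym1-207 is a processed transcript of 5 exons that joins its first exon straight to the exon at chr4:127051275-127051425. Zmym1-207 thus lacks the exon with the start codon (chr4:127058793-127059031 in Zmym1-203). Its last exon also begins 294 bases further in, at an acceptor that it shares with Zmym1-202. Capitals mark the downstream exon, with 15 bases on each side.
Zmym1-207 exons 1 and 2: agggtgacgcgacagAAACCGCCCAGAATA
Zmym1-203 exons 1 and 2: agggtgacgcgacagCACACCACATGTATT
Zmym1-207 exons 4 and 5: gatgtcatcatgagcAAAAAATTTAGCTGT
Zmym1-203 exons 7 and 8: gatgtcatcatgagcAACTCAGCCAGTGAG

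Estimated counts summed to 28245360 in the shallowest library, CTRL 3, and to 46067534 in the deepest. Genes of the MBH were present, with 9 of 10 listed hypothalamic markers passing the filter and a summed level of 179 to 238 CPM in CTRL and 181 to 234 CPM in Emul. The 13 mitochondrially encoded protein genes took 4.51% to 5.52% of counts in CTRL and 5.71% to 6.75% in Emul, without overlap. By limma-voom, 3 of these 13 were higher with an adjusted p under 0.05, and 13 at an unadjusted p under 0.05. Of the 10 other lists, of tissue and cell type markers, 0 genes passed an adjusted p under 0.05 by limma-voom. Among these 10 lists, the summed level was apart between the groups only for the 5 astrocyte genes (1355 to 1469 CPM in CTRL, 1215 to 1348 in Emul). Those 5 genes lay from -0.40 to -0.0062 on the log2 scale (median -0.057), with 1 lower at an unadjusted p under 0.05. Oligodendrocyte genes, with 4 of 5 lower at an unadjusted p under 0.05, spanned 12280 to 15500 CPM in CTRL and 9602 to 13100 in Emul. Neuronal genes, with 4 of 5 higher at that threshold, spanned 2360 to 2574 CPM in CTRL and 2555 to 2768 in Emul. Among the other lists, 1 precursor gene of 4 was lower and 1 thalamic gene of 4 was higher at an unadjusted p under 0.05, and the microglial, endothelial, choroid plexus and erythroid lists had 0. The part of these shifts in the members' values was not tested.

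Fam222a was the most tightly grouped of the members in relation to its difference. Its log2 CPM (counts relative to TMM-scaled library size, on a log2 scale) was 4.03, 4.08, 4.14 and 4.11 in CTRL 1 to 4. In Emul 1 to 5 it was 3.57, 3.65, 3.72, 3.69 and 3.61. The highest Emul library lay 0.31 below the lowest CTRL library, and the mean went from 4.09 ± 0.046 (SD, n = 4) to 3.65 ± 0.062 (SD, n = 5). The fitted difference of -0.44 ± 0.050 (SE) on the log2 scale corresponds to a level 26.3% lower, and was 7.91 times the spread within groups. Nearly all of it sits on the coding transcript Fam222a-201, which held between 98.6% and 99.7% of the gene's counts in every library. In all 9 libraries the gene's estimated count was whole within 0.01, from 501 to 743 counts in CTRL and from 439 to 582 in Emul.

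Mfap3 had the smallest difference of the members and also the smallest spread. Log2 CPM was 5.03, 5.03, 5.10 and 5.09 in CTRL 1 to 4. In Emul 1 to 5 it was 4.78, 4.85, 4.75, 4.78 and 4.80. The groups did not overlap, at 5.06 ± 0.038 (SD, n = 4) against 4.80 ± 0.038 (SD, n = 5), and the fitted log2 difference was -0.27 ± 0.037 (SE), or 16.8% lower. The gene's counts are divided between Mfap3-203 and Mfap3-201, which share a start codon and differ in the first exon, and only 0.480% and 1.19% of their 31-base words are found in no other transcript of the gene. Mfap3-203 held 68.0%, 68.4%, 95.8% and 63.7% of the counts in CTRL 1 to 4, and 66.4% to 82.0% in Emul. In CTRL 3, Mfap3-201 was at 0.00102% of the gene's counts, against 25.6% to 31.3% in the other CTRL libraries and 12.9% to 27.2% in Emul. The division between these transcripts thus overlapped between the groups, and the sum over coding transcripts did not, at 30.9 to 32.9 CPM in CTRL and 25.1 to 27.5 in Emul.

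**Figure D1:**
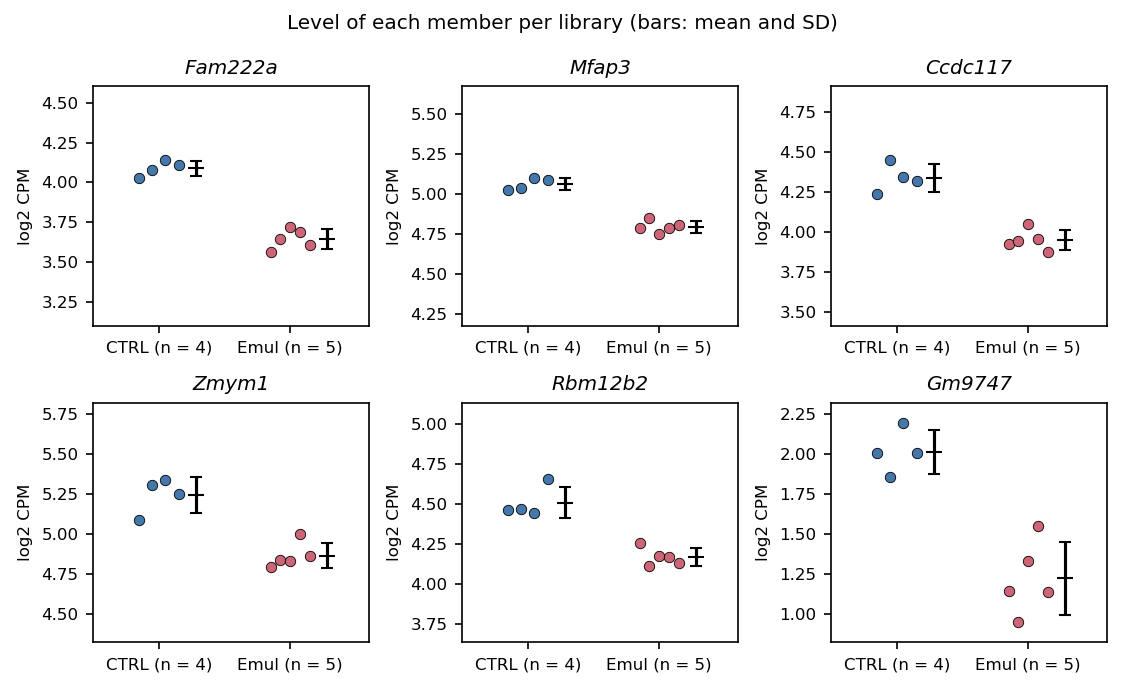
Log2 CPM of the 6 members, one point per library, with CTRL (n = 4) in blue and Emul (n = 5) in red; black bars give the mean and SD, and every panel spans 1.5 log2 units. Every Emul point lies under every CTRL point in each panel, and Gm9747 has both the largest difference and the widest spread.

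Ccdc117 is quantified from a single transcript, so its counts need no division. The estimated counts were whole numbers within 0.01 in all 9 libraries. They were 722, 900, 578 and 860 in CTRL 1 to 4, and 601, 638, 625, 702 and 530 in Emul 1 to 5. These raw counts overlap between the groups, CTRL 3 being the shallowest library. After scaling, log2 CPM was 4.24, 4.45, 4.34 and 4.32 in CTRL and 3.93, 3.95, 4.05, 3.96 and 3.88 in Emul, with no overlap. The mean went from 4.34 ± 0.088 (SD, n = 4) to 3.95 ± 0.064 (SD, n = 5), a fitted difference of -0.39 ± 0.055 (SE), or 23.6% lower.

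Zmym1, the zinc finger gene, was the highest of the members per unit length, with a mean of 25.4 TPM. Its log2 CPM was 5.08, 5.31, 5.34 and 5.25 in CTRL 1 to 4 and 4.79, 4.84, 4.83, 5.00 and 4.86 in Emul 1 to 5. CTRL 1 was the lowest control and Emul 4 the highest of its group, 0.083 apart on the log2 scale. The means were 5.24 ± 0.11 (SD, n = 4) and 4.86 ± 0.080 (SD, n = 5), with a fitted difference of -0.37 ± 0.058 (SE), or 22.9% lower.

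The difference in Zmym1, as kallisto divided the counts, was unevenly spread over its transcripts. Zmym1-207, the processed transcript without the start codon exon, stood at 8.71, 7.06, 2.81 and 10.6 CPM in CTRL 1 to 4. In Emul 1 to 5 it stood at 4.09, 2.91, 1.26, 4.40 and 1.57 CPM. CTRL 3 was the exception among controls, within the range of Emul, and the mean was 7.28 ± 3.3 CPM (SD, n = 4) in CTRL against 2.85 ± 1.4 (SD, n = 5) in Emul. Zmym1-204, the other processed transcript with at least 5% of the counts, averaged 3.31 ± 0.53 CPM in CTRL and 1.81 ± 0.70 in Emul, with overlap. The longest coding transcript, Zmym1-203, averaged 15.9 ± 2.6 CPM in CTRL and 11.8 ± 2.1 in Emul, with overlap. Zmym1-201, a shorter coding model that has 0 words of its own against the other transcripts, went the other way, at 11.1 ± 6.5 CPM in CTRL and 12.5 ± 1.7 in Emul. Summed by annotation, the processed transcripts went from 10.8 ± 3.4 CPM to 4.86 ± 1.8, and the coding ones from 27.1 ± 5.5 to 24.2 ± 2.1. Both sums overlapped between the groups.

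Coding transcripts made up 65.2%, 74.5%, 83.7% and 60.8% of Zmym1 counts in CTRL 1 to 4. In Emul 1 to 5 they made up 74.2%, 85.9%, 87.9%, 79.7% and 88.9%, so the shares overlapped. With coding transcripts alone, the fitted log2 difference of Zmym1 was -0.13 in place of -0.37 and its groups overlapped. They also overlapped in the authors' own table of log2 CPM, where CTRL reached down to 5.10 and Emul up to 5.13, with a difference of the means of -0.41 (5.37 ± 0.19 in CTRL, 4.97 ± 0.12 in Emul). The gene's total is whole within 0.01 in all 9 libraries, while Zmym1-207 has only 27 words (1.16%) found in no other Zmym1 transcript.

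**Figure D2:**
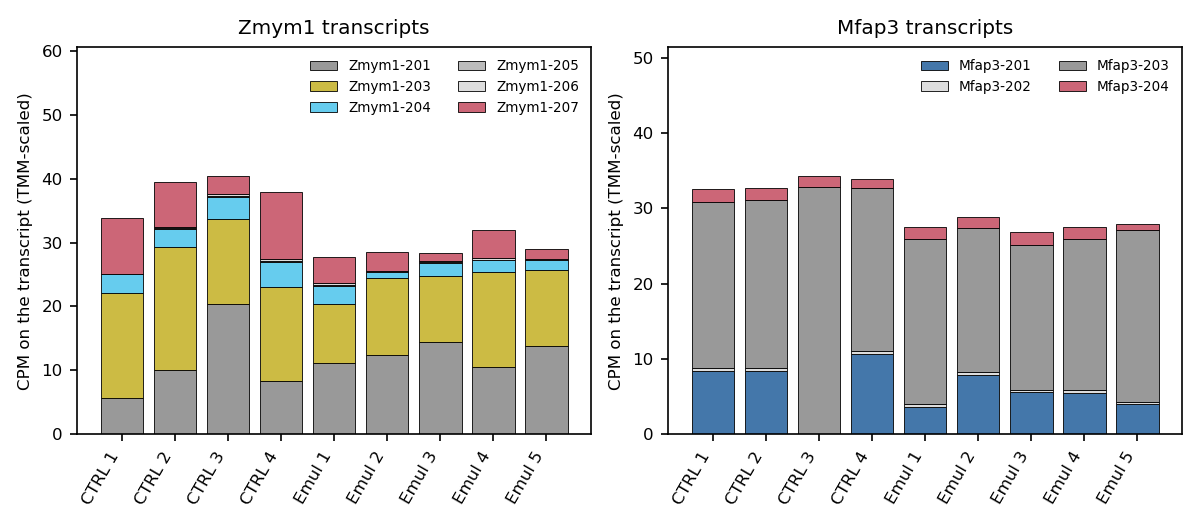
Stacked bars of TMM-scaled CPM on each transcript of Zmym1 (left) and Mfap3 (right) in each of the 9 libraries; the height of a bar is the gene's total. In Zmym1 the red segment (Zmym1-207) spans 2.81 to 10.6 CPM in CTRL and 1.26 to 4.40 in Emul, and in Mfap3 the blue segment (Mfap3-201) is at 0.000351 CPM in CTRL 3.

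Rbm12b2, the RNA recognition motif gene, has to be read beside its near copy. Its log2 CPM was 4.46, 4.47, 4.45 and 4.66 in CTRL 1 to 4 and 4.26, 4.12, 4.18, 4.17 and 4.13 in Emul 1 to 5. CTRL 4 stood above the other 3 controls, and the groups did not overlap. The means were 4.51 ± 0.099 (SD, n = 4) and 4.17 ± 0.056 (SD, n = 5), with a fitted difference of -0.35 ± 0.055 (SE), or 21.4% lower. Without CTRL 4 the difference was -0.29. At least 98.5% of the counts were on Rbm12b2-201 in every library, and in 0 of the 9 libraries was the gene's estimated count whole.

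Rbm12b1, the copy, was 3.97, 4.19, 4.06 and 4.12 on the log2 CPM scale in CTRL 1 to 4. In Emul 1 to 5 it was 3.71, 3.79, 4.10, 3.81 and 3.60, and Emul 3 alone reached into the control range. Its log2 difference was -0.28 ± 0.087 (SE), which did not pass the adjusted threshold (limma-voom, adjusted p = 0.177, between 0.0859 and 0.347 over the alternatives). Since the copy takes part of the same reads, it is no independent observation. Rbm12b2 held 54.9% to 59.3% of the counts of the pair in CTRL and 51.3% to 59.4% in Emul, so the division between the copies overlapped. As log2 of summed CPM, both copies together went from 5.31 ± 0.079 (SD, n = 4) to 5.00 ± 0.092 (SD, n = 5) and were lower in every Emul library. Between the copies lies the pseudogene Gm11839, which shared 0 of the words counted here and stood at -0.25 ± 0.15 (limma-voom, adjusted p = 0.439).

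Gm9747 was the lowest of the members and the one with the largest difference. None of its words is its own, so its level rests on how reads were divided with Irs1. Its estimated counts were 152, 147, 129 and 171 in CTRL 1 to 4 and 85.3, 78.2, 93.3, 131 and 77.8 in Emul 1 to 5. Log2 CPM was 2.00, 1.86, 2.19 and 2.00 in CTRL and 1.14, 0.95, 1.33, 1.55 and 1.14 in Emul. No Emul library reached a control, although Emul 4 came within 0.30, and the means were 2.02 ± 0.14 (SD, n = 4) and 1.22 ± 0.23 (SD, n = 5). The fitted difference was -0.78 ± 0.13 (SE), or 41.9% lower. It is the only 1 of the 6 members past a 1.5-fold change, a size which, with an unadjusted p under 0.05, 0.222% of all genes tested reached in the lower direction.

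The gene around Gm9747 on the other strand, Irs1, encodes insulin receptor substrate 1, an adaptor of insulin signalling. Irs1 stood at 32.1, 37.2, 34.5 and 34.7 CPM in CTRL 1 to 4 and at 26.1, 26.1, 25.7, 30.5 and 30.3 CPM in Emul 1 to 5. Every Emul library was thus under every control for Irs1 as well. Since reads that fit Gm9747 also fit Irs1 in sequence, these are not independent observations. Its log2 difference was -0.32 ± 0.065 (SE), short of the adjusted threshold (limma-voom, adjusted p = 0.0856, between 0.00138 and 0.204 over the alternatives). Neither gene had a whole estimated count in any of the 9 libraries, so reads were divided among transcripts in the authors' quantification. Gm9747 has 1 quantified transcript, and among the transcripts matched here its words occur elsewhere only in Irs1, on the opposite strand. Its fractional counts thus point to reads divided between the strands. Whether kallisto was told the strand of the reads is not given in the sources used here. Gm9747 held 11%, 8.75%, 11.6% and 10.3% of the summed counts of both genes in CTRL 1 to 4. In Emul 1 to 5 it held 7.64%, 6.75%, 8.78%, 8.64% and 6.63%, with Emul 3 just above CTRL 2. As log2 of summed CPM, both genes together went from 5.27 ± 0.074 (SD, n = 4) to 4.90 ± 0.13 (SD, n = 5).

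**Figure D3:**
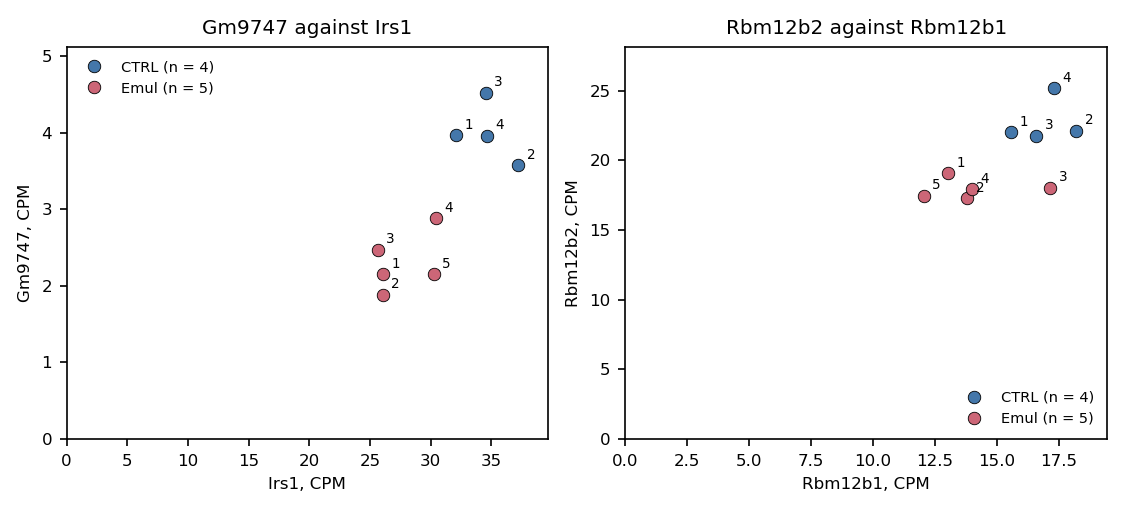
TMM-scaled CPM of Gm9747 against Irs1 (left) and of Rbm12b2 against Rbm12b1 (right), one point per library with its replicate number, CTRL in blue and Emul in red, both axes from 0. In both panels all Emul points lie lower on the vertical axis than all CTRL points, and on the horizontal axis the groups are apart for Irs1 but not for Rbm12b1, where Emul 3 lies at 17.2 CPM.

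All 6 members had no overlap between the groups, a pattern that 3.8% of the genes tested showed in the lower direction, and nothing is read from that count because the members were chosen from the same contrast. The median log2 difference of the members was -0.38 against 0.0015 over all genes tested. Their spread within groups, at a median SD of 0.076, was close to the median of 0.087 over all genes. For Fam222a and Mfap3 it was 0.056 and 0.038, no more than the counting error expected at their mean counts (0.061 and 0.042 on the log2 scale). All 6 members have an adjusted p under 0.05 by limma-voom, a measure that favours a small spread, so nothing is read from these values. Per unit length the members were of low to middling level. Mean TPM was 10.1 for Fam222a, 15.2 for Mfap3, 10.3 for Ccdc117, 25.4 for Zmym1, 11.9 for Rbm12b2 and 2.18 for Gm9747, beside a median of 20.7 over genes tested. Only Zmym1 lay above that median, with 56.2% of the genes tested under it, and Gm9747 had 9.99% under it.

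Differences between libraries of 1 group were also compared across members. The choice of members used the size of this spread, through the adjusted p, so the correlations are not independent of it. After each group's mean was subtracted, the 15 pairs of members had a median Pearson r of 0.0586, from -0.277 to 0.584, with 9 pairs above 0. Over all pairs of genes tested the median was -0.0005. The highest values joined Fam222a with Zmym1 (0.584), Ccdc117 (0.579) and Gm9747 (0.567). Rbm12b2 was between -0.107 and 0.0514 with each of the other members. These values rest on 9 libraries that share depth and scaling, and are given as a description.

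**Figure D4:**
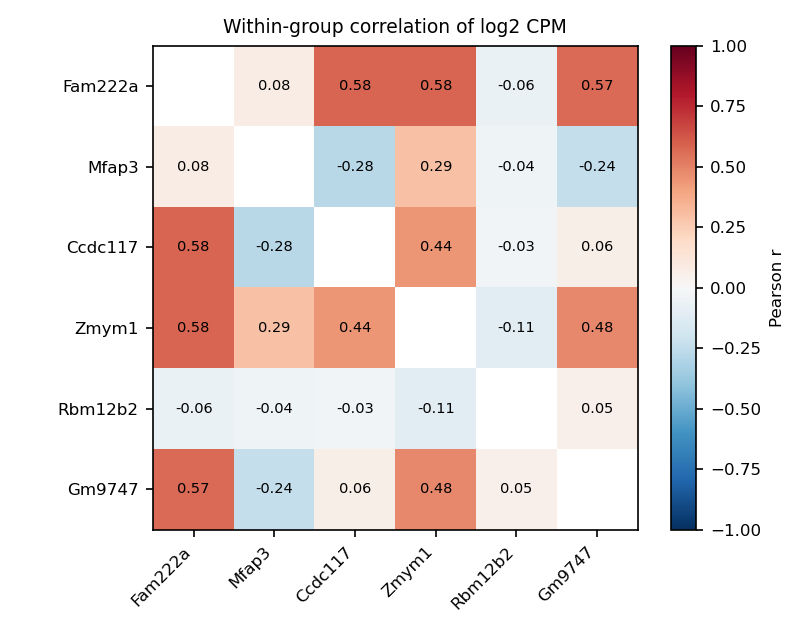
Pearson r between members over 9 libraries after subtracting each group's mean log2 CPM; red is positive and blue negative on a scale from -1 to 1. Fam222a is above 0.56 with Ccdc117, Zmym1 and Gm9747, and the row of Rbm12b2 is near 0.

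For each member, the 3 tested genes most like it in this measure were listed. They were Tulp1 (0.951), Nphp4 (0.943) and Col2a1 (0.931) for Fam222a, and Ly6h (0.959), March9 (0.956) and Rhbdd3 (0.948) for Mfap3. Ccdc117 was most like Pcdha9 (0.951), Olfr552 (0.946) and B3glct (0.946), and Zmym1 most like Gm4724 (0.952), Dynlrb2 (0.948) and Cog5 (0.934). For Rbm12b2 they were Stoml3 (0.945), Glyctk (0.938) and Llph-ps2 (0.933), and for Gm9747 they were Prpf4b (0.983), 2610005L07Rik (0.982) and Mga (0.961). With 9 libraries and 15340 genes, values this high are found for every member. Between Emul and CTRL these genes lay from -0.18 (Rhbdd3) to 0.33 (Llph-ps2) on the log2 scale.

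Relatives of the members were examined by lists. Of 63 related genes tested, 0 passed the adjusted threshold in either direction by limma-voom, while 6 were lower and 2 higher at an unadjusted p under 0.05 (1379 lower and 1049 higher among all 15340 genes). By edgeR and by DESeq2, 1 passed after adjustment, the same gene in each case, Rbm15. The closest relatives of 2 members stayed near 0. Fam222b, the paralog of Fam222a, stood at -0.06 ± 0.036 (limma-voom, adjusted p = 0.43), and Mfap3l, the paralog of Mfap3, at 0.02 ± 0.055 (limma-voom, adjusted p = 0.896). The 5 other MYM zinc finger genes lay between -0.05 for Zmym3 and 0.07 for Zmym4, and 0 of them had an unadjusted p under 0.05.

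Genes near the members in function are given beside the share over all genes tested. At an unadjusted p under 0.05, 8.99% of those were lower and 6.84% higher. Among 7 tested genes of the elastic microfibril, the fibre to which microfibril-associated proteins belong, 0 had an unadjusted p under 0.05 (median log2 difference -0.07). Among 15 genes of amyloid precursor processing, Bace1 (beta-secretase, -0.08 ± 0.030) and Aph1a (a gamma-secretase subunit, -0.10 ± 0.039) were lower at an unadjusted p under 0.05. App itself, the precursor, was higher at that threshold (0.07 ± 0.030), and their adjusted p values by limma-voom were 0.236, 0.259 and 0.266. Of the RNA-binding genes, Rbm12 stood at -0.14 ± 0.079 (limma-voom, adjusted p = 0.412). Of 32 other Rbm genes tested, 3 were lower and 1 higher at an unadjusted p under 0.05. Rbm15, an adaptor of the RNA methylation complex, was at -0.31 ± 0.058 with no overlap between groups (limma-voom, adjusted p = 0.0703, between 0.000707 and 0.204 over the alternatives). Rbm4 was at -0.13 ± 0.040, Rbm45 at -0.13 ± 0.052 and Rbm33 at 0.09 ± 0.032 (limma-voom, adjusted p = 0.173, 0.252 and 0.215).

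Neighbours in the genome were read to see whether the members' surroundings differed with them. By limma-voom, 0 of 14 neighbours tested passed the adjusted threshold (0 with edgeR and 1 with DESeq2, Irs1). At an unadjusted p under 0.05, 3 were lower (Mvk, Gm12941 and Irs1) and 1 was higher (Pdp1). Of all genes tested, 8.99% were lower and 6.84% higher. Irs1 shares words with Gm9747, so it is no independent observation of that member's surroundings. Fam114a2, which starts 47 bases from Mfap3 on the opposite strand, overlapped between the groups, going from 4.91 ± 0.060 (SD, n = 4) to 4.95 ± 0.047 (SD, n = 5) log2 CPM (limma-voom log2 difference 0.04 ± 0.042, adjusted p = 0.697). On its other side, Galnt10 was at -0.07 ± 0.058 (adjusted p = 0.622). Beside Ccdc117, Xbp1, a transcription factor of the unfolded protein response that ends 2994 bases away, was at 0.04 ± 0.053 (limma-voom, adjusted p = 0.756). Mrps24, a mitochondrial ribosomal protein gene on the other side, was at -0.01 ± 0.082 (limma-voom, adjusted p = 0.955). Beside Fam222a, Mvk (mevalonate kinase) was at -0.18 ± 0.061 and the ion channel gene Trpv4 at 0.11 ± 0.12 (limma-voom, adjusted p = 0.203 and 0.672).

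Past the end of Zmym1 lies Gm12941, a processed pseudogene of 220 bases, 492 bases away on the other strand. On the log2 CPM scale it was at 0.62 ± 0.23 (SD, n = 4) in CTRL, against -0.08 ± 0.17 (SD, n = 5) in Emul, with no overlap (limma-voom log2 difference -0.72 ± 0.16, adjusted p = 0.102). Gm12941 is close to the filter, a CPM above 1 in 4 libraries or more, which the CTRL libraries alone can meet. Nothing is read from its difference. Zmym6, on the far side, was at -0.02 ± 0.051 (limma-voom, adjusted p = 0.862), and Gm12940 and Gm12944, which overlap Zmym1, did not pass the filter. Around Rbm12b2, Tmem67 (a ciliary membrane protein gene) was at -0.09 ± 0.056 and Pdp1 (a pyruvate dehydrogenase phosphatase) at 0.20 ± 0.089 (limma-voom, adjusted p = 0.444 and 0.295). Nyap2 and Rhbdd1, either side of Gm9747 and Irs1, were at -0.04 ± 0.056 and 0.03 ± 0.072 (limma-voom, adjusted p = 0.794 and 0.863).

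**Figure D5:**
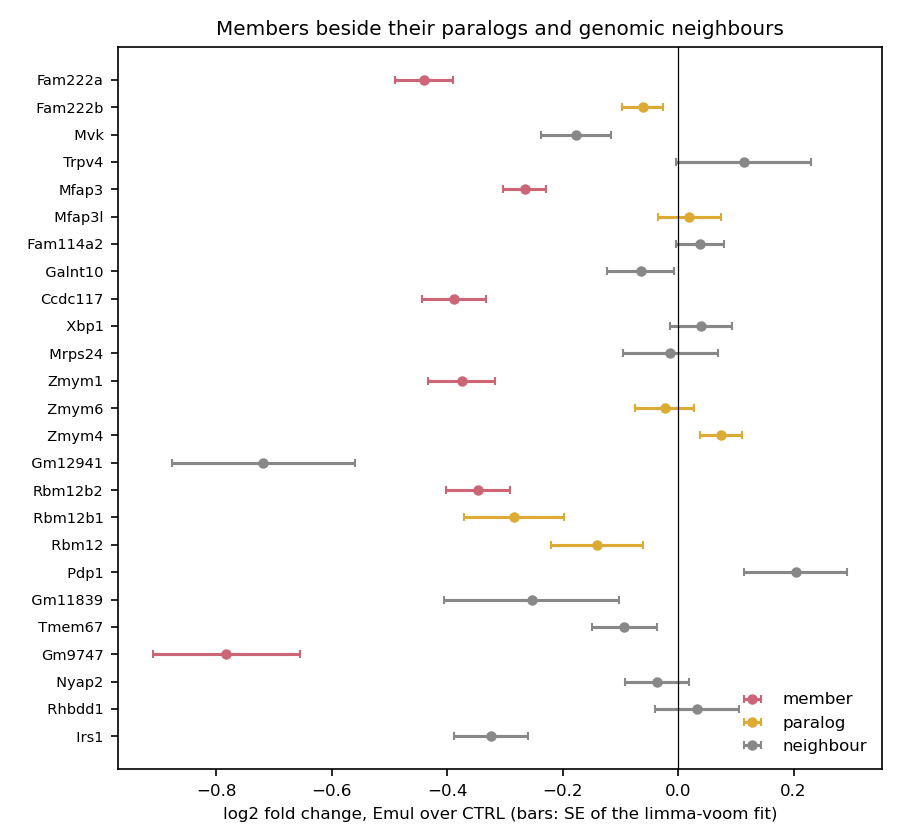
Log2 fold change of Emul over CTRL with its SE from the limma-voom fit, for the 6 members (red), paralogs (yellow) and tested genomic neighbours (grey), grouped under each member. The members lie between -0.78 and -0.27, and among the others Gm12941 (-0.72), Irs1 (-0.32), Rbm12b1 (-0.28) and Gm11839 (-0.25) lie lowest. Gm12941 is close to the filter on low counts.

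Promoter sequence from RefSeq (GRCm38.p6) was at hand for Fam222a and Mfap3, 2 of the 6 members. In the 250 bases before the start, on both strands, Mfap3 held 2 GC boxes (GGGCGG, in 32.7% of 32851 promoters) and 1 ETS match (CCGGAAG, in 6.91%). By the RefSeq ends, this window lies inside Fam114a2, which is read the other way, so the matches cannot be assigned to Mfap3 alone. Fam222a held 0 of the 8 motifs searched. The others were a CRE (TGACGTCA, in 1.55% of promoters), AP-1 (TGANTCA, 6.75%), CCAAT (33.8%), a TATA box (TATAAA, 12.4%), an NRF1 element (GCATGCGC, 2.26%) and YY1 (GATGGCGGC, 0.438%), each with 0 matches in both genes. No motif searched was thus common to both windows.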

How the data were processed

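The authors sequenced MBH RNA of 4 CTRL and 5 Emul males at P21. They ran kallisto on mm10 and deposited estimated counts and TPM values for 119414 transcripts per library, and a table of log2 CPM for 14593 rows, 1 of them unnamed and not used. These deposited estimated counts carry no normalization and can be fractional. The submitters' processing notes name FastQC 0.11.9, kallisto 0.46.1 and edgeR 3.40.1, and the strand setting is not given in the sources used here.

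Here, transcripts were matched to GENCODE M21 by identifier (97.8% matched), leaving out 1.20% to 1.27% of counts. Estimated counts were summed per gene, a gene was kept if its CPM exceeded 1 in 4 libraries or more (15340 genes), and limma-voom with TMM was fitted over all of them without covariates (R 4.3.3, limma 3.58.1, edgeR 4.0.16, DESeq2 1.42.0), with Benjamini-Hochberg adjustment over all genes tested and an adjusted p under 0.05 as threshold. The test was checked on simulated data. Log2 CPM per library used a prior count of 2, and other CPM values are estimated counts over TMM-scaled library size. Libraries held 28.2 M to 46.1 M counts. Poisson counting error at a member's mean count ran from 0.040 (Zmym1) to 0.13 (Gm9747) on the log2 scale, against a pooled SD within groups of 0.096 and 0.19. It equalled or exceeded that SD for Fam222a and Mfap3.

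The members and lists were chosen with earlier results of these data known. Named beside the 6 members are their transcripts with at least 5% of the gene's counts, related genes with an unadjusted p under 0.05, closest paralogs, genomic neighbours (nearest tested gene on each side, overlapping genes, and opposite starts within 1000 bases) and the 3 genes of highest within-group r. Zmym4, Zmym3, Rbm12 and the lesser transcripts were named after their values were seen. Alternatives were edgeR, DESeq2, other scalings, no filter, lengthScaledTPM, coding transcripts only, the authors' table, the 13 mitochondrial genes left out, a replicate block and each library left out. Words of 31 bases were counted on both strands of the GENCODE M21 transcripts, and the Rbm12b pair was aligned with Biopython 1.88.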

Additional observations from a re-analysis of the deposited data

Results flagged for a closer look

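Among 36 sets of 4 or 5 libraries examined (levels of the members and their read-sharing partners, transcript shares and pair shares, in each group), 2 held a library far from the others of its group, where chance gives about 1 in 20. For Rbm12b2, CTRL 4 lay at 4.66 log2 CPM and the other 3 controls at 4.45 to 4.47, a gap of 0.89 of the group's range. For Mfap3, transcript Mfap3-203 held 95.8% of the gene's counts in CTRL 3, the shallowest library, against 63.7% to 68.4% in the other controls (a gap of 0.853 of the range), while the gene's total in CTRL 3 was 5.10 log2 CPM against 5.03 to 5.09 in those controls.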

How the results depend on the processing

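Each member's log2 fold change was recomputed under 19 alternatives. All 114 values stayed below 0, and 111 moved by less than the spread within groups. The exceptions were Zmym1 with coding transcripts only (-0.13) and Mfap3 with lengthScaledTPM (-0.22) and in the authors' table (-0.21). Over single libraries left out, the values ran from -0.46 to -0.42 for Fam222a, -0.28 to -0.25 for Mfap3, -0.42 to -0.35 for Ccdc117, -0.43 to -0.35 for Zmym1, -0.37 to -0.29 for Rbm12b2 and -0.87 to -0.71 for Gm9747. With groups already apart, leaving out a library can hardly turn the sign or move a mean by the spread within groups. The share of the 114 values that stayed close is thus partly set in advance, and nothing is read from it for those refits. Overlap of the groups was recomputed under the 17 alternatives other than edgeR and DESeq2. Only Zmym1 overlapped, with coding transcripts only, with lengthScaledTPM and in the authors' table. Groups already apart stay apart when a library is left out, save for rescaling, and the replicate block leaves log2 CPM as it was. Those alternatives could thus hardly bring an overlap, and nothing is read from its absence there. The causes of the exceptions were not tested.

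Genes with an adjusted p under 0.05 numbered 18 with limma-voom, 5 without the filter, 10 with median-of-ratios size factors, 60 with library size alone, 6 with lengthScaledTPM, 10 with coding transcripts only, 6 without mitochondrial genes, 33 with edgeR, 341 with DESeq2 and 5 in the authors' table. Leaving out a library gave 0 (without CTRL 2) to 24 (without Emul 4), so membership of that set depends on single libraries. With the replicate block it was 1. The labels do not say that their numbers pair libraries, and over all genes the deviations of same-numbered libraries correlated at -0.163 to 0.021. Those correlations cannot decide on a small shared effect, and Emul 5 has no partner. The block also leaves fewer degrees of freedom for the test. Genes lower at an unadjusted p under 0.05 numbered 1379, and 2248 with library size alone. Genes lower without overlap numbered 583, 1025 with library size alone, and 709 to 883 (without CTRL 1) with a library left out. Among related genes and neighbours, the adjusted count of 0 became 1 each with library size alone and with DESeq2 (Rbm15 and Irs1), and 1 with edgeR (Rbm15). The median r between members was 0.133 with Spearman and -0.0191 to 0.203 with a library left out.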
